A study of Mus musculus with 10 samples.

Results

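The genes of the respiratory chain and the ATP synthase were followed in the aortic arch of double-null mice (ApoE-/-,MyD88-/-), which lack both apolipoprotein E and MyD88, set against apoE-null mice (ApoE-/-), which lack apolipoprotein E alone. Members were the genes whose platform symbol starts with Nduf, Sdh, Uqcr, Atp5 or Cox4 to Cox8, or is Cyc1 or Cycs, without the muscle and brown fat isoforms Cox6a2, Cox7a1 and Cox8b. This rule took 75 of 11130 genes, on 84 of 13872 probes. By prefix, 34 genes belonged to complex I, 5 to complex II, 7 to complex III, 12 to complex IV and 16 to complex V, and Cycs encodes the carrier between complexes III and IV. Each of 10 two-colour arrays carried RNA of both genotypes, and each of 5 mouse pairs was run with both assignments of the channels, so that 5 pairs were the replicates. In pair 1 both mice were female, in pairs 2, 3 and 4 both were male, and in pair 5 the double-null mouse was male and the apoE-null mouse female. Apolipoprotein E was missing from all mice, and 8 of the arrays are labelled with a high fat diet of 8 weeks. The arrays without this label, in pairs 2 and 3, carry the same mice as their swapped arrays, which have it. The labels give no age and name no cell type or promoter that limits either allele. RNA came from the whole arch after connective tissue had been removed, and fewer cells of a type cannot be told apart from less RNA per cell.

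The respiratory chain sits in the inner mitochondrial membrane. Complex I (NADH dehydrogenase) and complex II (succinate dehydrogenase, also an enzyme of the citrate cycle) pass electrons to ubiquinone, complex III (the cytochrome bc1 complex) hands them to cytochrome c, and complex IV (cytochrome c oxidase) hands them to oxygen. Complexes I, III and IV pump protons, and the ATP synthase, or complex V, lets protons flow back to make ATP. Most subunits are encoded in the nucleus, and their transcripts are abundant in heart, skeletal muscle and brown fat.

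Values are log2 ratios of double-null over apoE-null, so 1 is a doubling in double-null aorta and 0 is no difference. Myd88, the disrupted gene, had ratios of -1.06, -0.57, -0.81, -1.15 and -0.90 in pairs 1 to 5, below 0 in each, with a mean of -0.90 ± 0.22 (SD, n = 5 pairs, adjusted p = 0.0269) in limma. On the arrays of pair 1 the mouse numbers 7 and 8 stand with opposite genotypes, so the genotype labels were used, and the main values are also given without this pair. Arrays held 4581 to 7057 values, the rest being blank. A member was tested where at least 3 pairs had a value from both arrays: 67 genes, each through 1 probe, were tested, 62 of them in all 5 pairs. This was 79.8% of member probes, against 35.1% of all probes. Of the other 17 member probes, 13 had no value and 4 had too few, which left 8 genes untested. Markers of the vessel wall were measured, with 7 of 12 smooth muscle and 10 of 13 endothelial genes tested, but ratios hold no levels.

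No respiratory chain or ATP synthase gene passed the test between double-null and apoE-null aorta. Of 67 members, 0 rose and 0 fell at an adjusted p under 0.05 in limma, where 0.814% of all 4299 genes were called, and by probe the count was also 0, where 0.781% of all probes were called. At an unadjusted p under 0.05 there were 4 members, all higher. In the same direction 4.02% of all genes (4.13% of probes) reached this, and 9.44% of genes in either direction. The means leaned one way: 65 of 67 members were above 0, against 41.7% of all genes, with a median of 0.28, against -0.040 for all genes. The lowest adjusted p of any member was 0.461. Without pair 1 the median member was at 0.065 and 45 of 66 were above 0, with 0 called and 0 at an unadjusted p under 0.05.

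**Figure D1:**
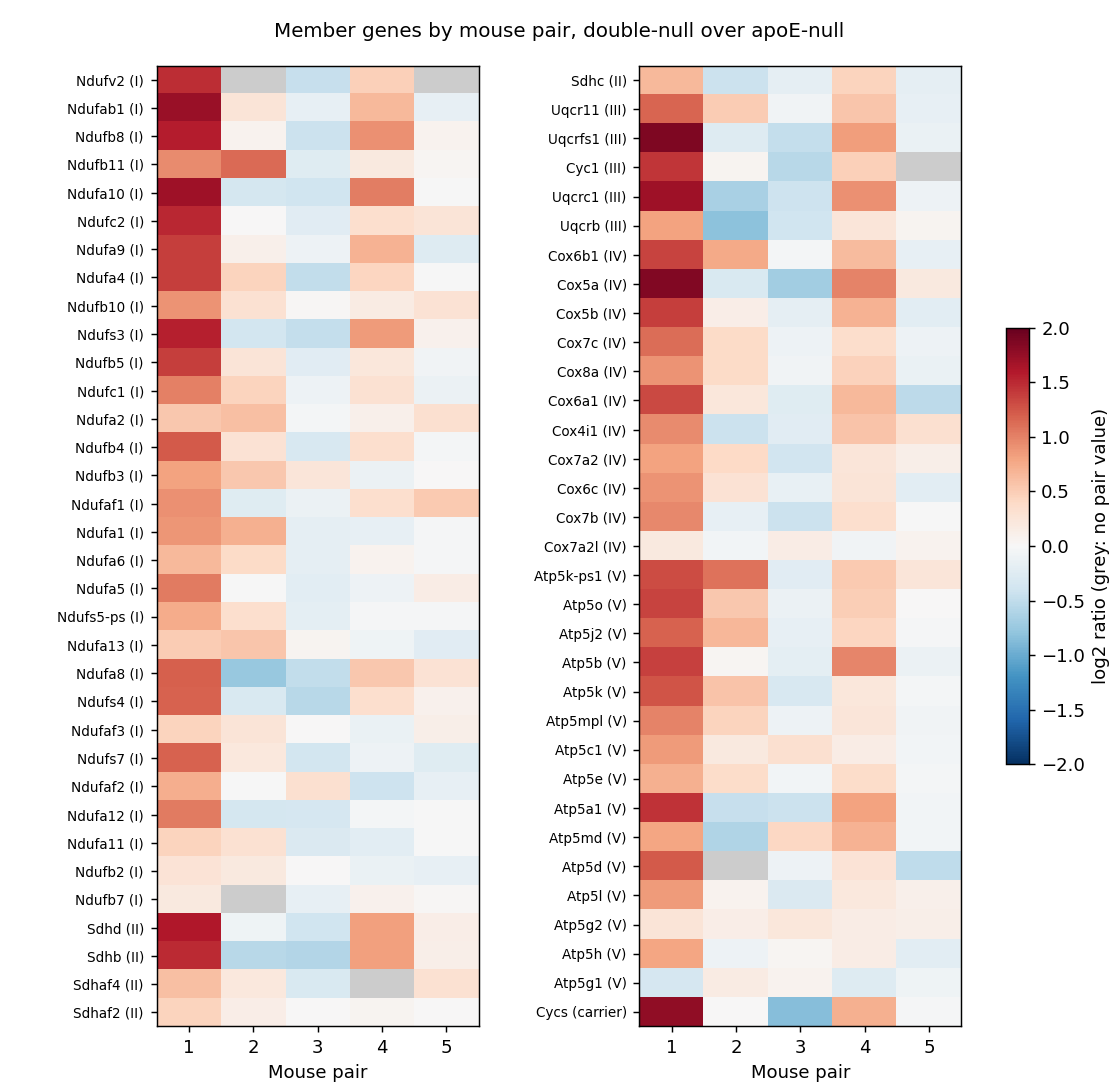
Colours give the log2 ratio of double-null over apoE-null for the 67 tested genes (down the page, with their complex) in each of 5 mouse pairs (columns); grey marks a missing pair value. In pair 1, 66 of 67 genes are above 0, and in pair 3, 13 of 67 are.

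The member medians ranged widely over the pairs. In pair 1 their median was 1.04 and 66 of 67 were above 0, against 42.3% of all genes with a value there. Pair 4 had a median of 0.33 with 53 of 66 above 0, and pair 2 a median of 0.18 with 43 of 64 above 0. Pair 3 went the other way, at -0.19 with 13 of 67 above 0, and pair 5 lay near 0, at -0.022 with 26 of 65 above 0. The medians of all genes stayed between -0.084 and -0.0033. Among the 62 members measured in all pairs, 58 had their highest value in pair 1, against 22.4% of all such genes, and 34 had their lowest in pair 3, against 13.5%. Only 3 of 62 (Atp5g2, Ndufb10 and Sdhaf2) were above 0 in every pair, a share of 4.84%, against 4.32% of all genes. None of these 3 was above 0 on every array.

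Both channel assignments gave the pairs the same order. Member medians in pairs 1 to 5 were 0.97, 0.13, -0.28, 0.24 and -0.038 where channel 1 held double-null RNA. They were 1.26, 0.19, -0.13, 0.43 and -0.012 where channel 2 held it. The second kind of array was the higher in each pair, by less than the gap between pair 1 and any other pair. Across the member probes of a pair, which share their RNA and are no replicates, Pearson's r between its arrays was 0.61 in pair 1 (n = 68), 0.75 in pair 2 (n = 64), 0.019 in pair 3 (n = 67), 0.61 in pair 4 (n = 66) and 0.24 in pair 5 (n = 65). Over all tested probes r was 0.56, 0.32, 0.047, 0.23 and 0.43 in pairs 1 to 5. The arrays of pair 3 thus shared little over the whole table as well, and in pair 5 r was lower for the members than for all probes.

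**Figure D2:**
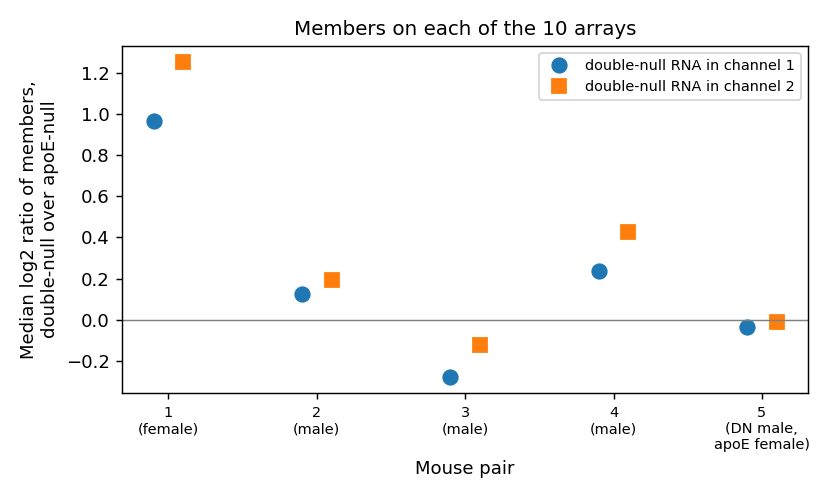
Each point is the median log2 ratio of the tested members on 1 array, by mouse pair, with 1 marker for each channel assignment. Both arrays of pair 1 lie at 0.97 or above, and the arrays of the other pairs lie between -0.28 and 0.43.

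Many nuclear genes of the respiratory chain have binding sites for the factors NRF1 and GABP (NRF-2) in their promoters. Promoters from RefSeq (GRCm38.p6, 250 bases before to 50 after the start) were matched for 64 of the 75 member genes. On either strand the NRF1 letters GCGCANGCG were found for 20 of the 64 genes (31.3%), against 7.03% of all 27025 genes with a promoter. The GABP letters CCGGAAG were found for 17 (26.6%), against 9.93%, and the longer CCGGAAGT, which contains them, for 5 (7.81%), against 4.31%. YY1 (AAGATGGCG) was found for 6 (9.38%), against 1.64%, ERR alpha (TCAAGGTCA) for 1 (1.56%), against 0.466%, and the TATA box (TATAAA) for 6 (9.38%), against 15.7%. A match is a description of letters and not a bound site. In pair 1 the 18 tested members with an NRF1 match had a median of 1.11, as had the 39 with a promoter and no match. For GABP the medians in pair 1 were 0.91 for 15 members with a match and 1.14 for 42 without, and in pair 4 they lay the other way, at 0.46 and 0.31. Over all pairs the medians of the mean ratios were 0.28 with a GABP match and 0.29 without.

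The 200 bases before the start are shown for 4 members that were high in pair 1 and hold such letters. They are also shown for Atp5g1, the member below 0 in pair 1, which holds neither. The highest members in pair 1, Uqcrfs1 (1.86) and Cox5a (1.85), hold neither as well and are not shown. A link between letters and ratios was not tested. Capitals mark NRF1 and GABP letters on either strand.
Cycs, chr6:50566570-50566769, minus strand: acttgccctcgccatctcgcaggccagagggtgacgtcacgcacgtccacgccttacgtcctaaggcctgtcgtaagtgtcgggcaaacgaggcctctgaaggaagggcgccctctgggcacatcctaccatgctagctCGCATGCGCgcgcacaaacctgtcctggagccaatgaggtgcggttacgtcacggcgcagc
Sdhd, chr9:50603850-50604049, minus strand: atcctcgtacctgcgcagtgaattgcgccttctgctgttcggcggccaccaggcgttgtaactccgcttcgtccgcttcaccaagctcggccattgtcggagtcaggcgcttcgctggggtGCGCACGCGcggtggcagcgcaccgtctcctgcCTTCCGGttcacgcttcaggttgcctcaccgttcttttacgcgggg
Ndufb4, chr16:37654369-37654568, minus strand: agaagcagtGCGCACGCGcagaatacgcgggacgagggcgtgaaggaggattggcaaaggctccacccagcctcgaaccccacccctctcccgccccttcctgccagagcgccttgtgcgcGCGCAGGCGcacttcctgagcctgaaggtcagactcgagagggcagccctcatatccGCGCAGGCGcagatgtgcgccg
Cox6a1, chr5:115348959-115349158, minus strand: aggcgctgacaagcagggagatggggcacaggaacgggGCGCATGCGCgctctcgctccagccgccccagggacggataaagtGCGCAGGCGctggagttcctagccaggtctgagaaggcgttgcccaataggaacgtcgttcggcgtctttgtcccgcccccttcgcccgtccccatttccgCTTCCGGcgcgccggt
Atp5g1, chr11:96075632-96075831, minus strand: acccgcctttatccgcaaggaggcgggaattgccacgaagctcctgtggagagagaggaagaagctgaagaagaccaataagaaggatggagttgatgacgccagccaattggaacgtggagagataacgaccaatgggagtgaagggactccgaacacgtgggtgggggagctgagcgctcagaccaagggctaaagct

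Complex I, where electrons from NADH enter, was measured through 26 subunits, each with a mean above 0, and none was called. Their medians in pairs 1 to 5 were 1.11, 0.26, -0.23, 0.20 and -0.0058, with 26 of 26 above 0 in pair 1 and 4 of 26 in pair 3. Ndufb10, of the membrane arm, had log2 ratios of 0.90, 0.30, 0.016, 0.16 and 0.29 in pairs 1 to 5, with a mean of 0.33 ± 0.34 (SD, n = 5 pairs, adjusted p = 0.522). It was the only complex I subunit above 0 in all 5 pairs, though its arrays in pair 3 disagreed, at 0.50 and -0.47. Ndufa2, an accessory subunit, had 0.55, 0.60, -0.035, 0.10 and 0.32, with a mean of 0.31 ± 0.28 (SD, n = 5 pairs, adjusted p = 0.521). Ndufb11, of the membrane arm, had 0.94, 1.13, -0.24, 0.19 and 0.032, the highest value of any member in pair 2 and a mean of 0.41 ± 0.59 (SD, n = 5 pairs, adjusted p = 0.559). Unlike most members it was higher in pair 2 than in pair 1. Ndufb3, also of the membrane arm, had 0.80, 0.54, 0.24, -0.11 and 0.0028, with a mean of 0.29 ± 0.38 (SD, n = 5 pairs, adjusted p = 0.566).

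Core subunits of complex I, which carry or surround its redox centres, were measured through 3 genes. Ndufs3 had log2 ratios of 1.56, -0.36, -0.47, 0.84 and 0.090 in pairs 1 to 5. Ndufv2, with an iron-sulphur cluster, had 1.48, -0.45 and 0.47 in pairs 1, 3 and 4 and the highest mean of the complex, 0.50 ± 0.97 (SD, n = 3 pairs, adjusted p = 0.646). Ndufs7, another iron-sulphur subunit, had 1.19, 0.21, -0.36, -0.11 and -0.25. All 3 were above 1 in pair 1 and below 0 in pair 3. Ndufb7, an accessory subunit, had the lowest mean, 0.033 ± 0.15 (SD, n = 4 pairs, adjusted p = 0.942), from 0.19, -0.17, 0.086 and 0.028 in pairs 1, 3, 4 and 5. Ndufa4, named for complex I and known as a subunit of complex IV, had 1.38, 0.45, -0.50, 0.43 and -0.013, with a mean of 0.35 ± 0.69 (SD, n = 5 pairs, adjusted p = 0.627).

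Complex II subunits were high in pairs 1 and 4 and low in pairs 2 and 3, and none was called. Sdhb, the iron-sulphur subunit, had log2 ratios of 1.50, -0.55, -0.59, 0.81 and 0.11 in pairs 1 to 5, with a mean of 0.26 ± 0.90 (SD, n = 5 pairs, adjusted p = 0.758). Sdhd, a membrane anchor, had 1.60, -0.082, -0.39, 0.82 and 0.13, with a mean of 0.41 ± 0.80 (SD, n = 5 pairs, adjusted p = 0.616). Sdhc, the other anchor, had 0.65, -0.43, -0.19, 0.44 and -0.18, with a mean of 0.059 ± 0.46 (SD, n = 5 pairs, adjusted p = 0.917). All 3 were above 0 in pairs 1 and 4 and below 0 in pairs 2 and 3. On its arrays Sdhb had 1.28 and 1.72 in pair 1, -0.51 and -0.60 in pair 2, -0.56 and -0.62 in pair 3 and 0.68 and 0.95 in pair 4. Its sign was thus the same on both arrays of each of these pairs. The other subunits did not always share this. Sdhd gave 0.040 and -0.20 on the arrays of pair 2, and Sdhc -0.38 and 0.00029 on those of pair 3.

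Complex III had 5 tested subunits, with medians of 1.44, -0.26, -0.42, 0.55 and -0.12 in pairs 1 to 5, and none was called. Uqcrfs1, the Rieske iron-sulphur protein, had log2 ratios of 1.86, -0.26, -0.48, 0.83 and -0.13, the highest value of any member in pair 1 (mean 0.36 ± 0.98 (SD, n = 5 pairs, adjusted p = 0.693)). Uqcrc1, a core protein on the matrix side, had 1.69, -0.66, -0.42, 0.92 and -0.11 (mean 0.28 ± 0.99 (SD, n = 5 pairs, adjusted p = 0.756)). Cyc1, the cytochrome c1 subunit, had 1.44, 0.056, -0.56 and 0.48 in pairs 1 to 4 and no value in pair 5 (mean 0.35 ± 0.84 (SD, n = 4 pairs, adjusted p = 0.678)). These catalytic and core genes shared the high value in pair 1 and the low one in pair 3. Uqcrb, a small subunit near the ubiquinone site, had 0.81, -0.83, -0.41, 0.24 and 0.057, the lowest value of any member in pair 2 (mean -0.026 ± 0.62 (SD, n = 5 pairs, adjusted p = 0.968)). Uqcr11, another small subunit, had 1.17, 0.51, -0.069, 0.55 and -0.17 (mean 0.40 ± 0.54 (SD, n = 5 pairs, adjusted p = 0.543)) and was above 0 in pair 2, where Uqcrfs1, Uqcrc1 and Uqcrb were below. Cycs, the cytochrome c that carries electrons onward and triggers apoptosis when released, had 1.78, 0.0092, -0.85, 0.71 and -0.022 (mean 0.32 ± 0.98 (SD, n = 5 pairs, adjusted p = 0.726)), the widest range of any member.

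All 10 tested complex IV subunits averaged above 0 in pairs 1 and 4 and below 0 in pair 3, and none was called. The arrays of pair 3 differed in sign for Cox6b1, Cox6c, Cox7c and Cox8a, and those of pair 4 for Cox7b. Medians of the 10 subunits in pairs 1 to 5 were 1.04, 0.26, -0.20, 0.52 and -0.12. Cox6b1, at the interface of the enzyme dimer, had log2 ratios of 1.35, 0.76, -0.036, 0.63 and -0.16 and the highest mean of the complex, 0.51 ± 0.62 (SD, n = 5 pairs, adjusted p = 0.516). Cox5a, a subunit on the matrix side, had 1.85, -0.30, -0.70, 0.99 and 0.20, with the highest values of the complex in pairs 1 and 4. Cox4i1, the widely expressed form of the largest nuclear subunit, had 0.95, -0.42, -0.22, 0.57 and 0.33. Pair 2 divided them, with 7 of 10 above 0 and Cox4i1, Cox5a and Cox7b below. Cox5b averaged 0.36 ± 0.67 (SD, n = 5 pairs, adjusted p = 0.609), Cox7c 0.33 ± 0.50 (SD, n = 5 pairs, adjusted p = 0.582) and Cox8a 0.31 ± 0.43 (SD, n = 5 pairs, adjusted p = 0.580). In pair 2 these 3 were at 0.14, 0.38 and 0.38.

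ATP synthase had 14 tested subunits, with medians of 0.92, 0.16, -0.11, 0.25 and -0.053 in pairs 1 to 5, and none was called. In its catalytic head Atp5a1 (alpha) had log2 ratios of 1.45, -0.46, -0.43, 0.80 and -0.055 and Atp5b (beta) 1.37, 0.033, -0.19, 0.97 and -0.12. Atp5c1 (gamma, the rotating shaft) had 0.85, 0.19, 0.32, 0.14 and -0.059, with a mean of 0.29 ± 0.34 (SD, n = 5 pairs, adjusted p = 0.550). Alpha and beta were below 0 in pair 3, where gamma averaged above 0, with -0.00061 and 0.64 on its arrays. Atp5o, the stalk subunit that confers oligomycin sensitivity, had 1.35, 0.54, -0.12, 0.49 and 0.0095, with a mean of 0.45 ± 0.58 (SD, n = 5 pairs, adjusted p = 0.533). Atp5j2, of the membrane part, had 1.18, 0.66, -0.16, 0.42 and -0.028, with a mean of 0.41 ± 0.54 (SD, n = 5 pairs, adjusted p = 0.533). Both were highest in pair 1 and lowest in pair 3, and higher in pair 2 than in pair 4.

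**Figure D3:**
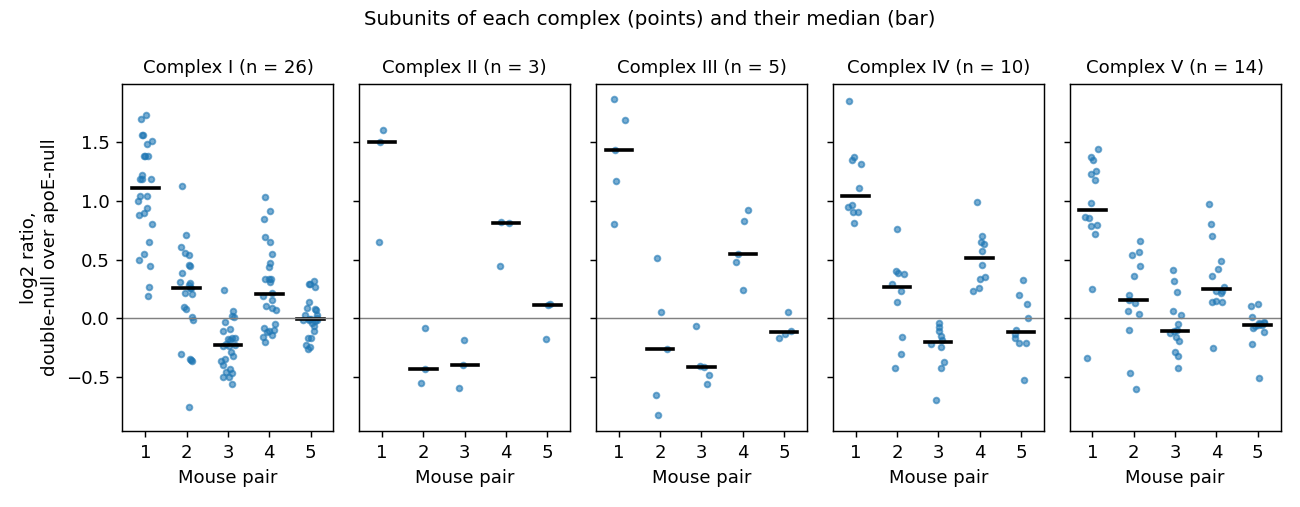
Each point is the log2 ratio (double-null over apoE-null) of 1 subunit gene in 1 mouse pair, shown by complex, with a bar at the median. Medians in pair 1 run between 0.92 for complex V and 1.50 for complex II, and in pair 2 complexes II and III lie below 0 while complexes I, IV and V lie above.

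A few members did not share the pattern. Atp5g1 and Atp5g2 are paralogs known to encode the same mature c subunit, which forms the rotor ring of the synthase. Atp5g1 had log2 ratios of -0.34, 0.16, 0.063, -0.25 and -0.082 in pairs 1 to 5 and was the only member below 0 in pair 1, where its arrays gave -0.34 and -0.33. Atp5g2 had 0.25, 0.13, 0.22, 0.14 and 0.12, the narrowest range of any member measured in all pairs. These are averages of arrays that disagreed in some pairs, with -0.094 and 0.60 in pair 1 and -0.36 and 0.81 in pair 3 (channel 1 first). Its mean was -0.022 where channel 1 held double-null RNA and 0.37 where channel 2 did. The means were -0.090 ± 0.21 (SD, n = 5 pairs, adjusted p = 0.784) for Atp5g1 and 0.17 ± 0.060 (SD, n = 5 pairs, adjusted p = 0.590) for Atp5g2, and neither was called. Cox7a2l, a relative of Cox7a2 that helps to join complexes III and IV into supercomplexes, had 0.19, -0.051, 0.15, -0.063 and 0.070 (mean 0.060 ± 0.12 (SD, n = 5 pairs, adjusted p = 0.849)), where Cox7a2 had 0.81, 0.40, -0.38, 0.23 and 0.12. Cox7a2l was also averaged from arrays that disagreed. Its mean was 0.22 where channel 1 held double-null RNA and -0.10 where channel 2 did. The paralog probes may share targets.

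Assembly factors, which build the complexes without staying in them, had a median of 0.14 over 5 tested genes (Ndufaf1, Ndufaf2, Ndufaf3, Sdhaf2 and Sdhaf4). Their medians in pairs 1 to 5 were 0.61, 0.13, 0.0022, -0.044 and 0.12. In pair 1 they lay between 0.45 and 0.91, where the median of 59 subunits, cytochrome c included, was 1.17. Sdhaf2, needed to attach flavin to succinate dehydrogenase, had 0.45, 0.13, 0.0022, 0.050 and 0.0098 (mean 0.13 ± 0.19 (SD, n = 5 pairs, adjusted p = 0.701)). Sdhaf4, also of complex II, had 0.61, 0.21, -0.31 and 0.30 in pairs 1, 2, 3 and 5 (mean 0.20 ± 0.38 (SD, n = 4 pairs, adjusted p = 0.679)). Neither was called, and the difference between assembly factors and subunits was not tested. The probe named for the pseudogene Atp5k-ps1 had the smallest p of any member, with 1.31, 1.09, -0.23, 0.52 and 0.24 and a mean of 0.59 ± 0.63 (SD, n = 5 pairs, adjusted p = 0.461). Atp5k, its parent gene, had 1.25, 0.57, -0.32, 0.23 and -0.038, and the probes may not tell them apart. The probe named for the pseudogene Ndufs5-ps had 0.73, 0.33, -0.19, -0.020 and -0.027.

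Complex II subunits and most complex III subunits had opposite signs in pairs 2 and 4, both male. Of 62 members, 17 were below 0 in pair 2 and above 0 in pair 4, a share of 27.4%, near the 23.0% of all genes. They took in 3 of 3 complex II, 3 of 4 complex III, 4 of 24 complex I, 3 of 10 complex IV and 3 of 13 complex V subunits. Cyc1 of complex III, not counted here since it had no value in pair 5, was above 0 in both pairs, at 0.056 and 0.48. The reverse held for 9 members, or 14.5%, against 24.4% of all genes. At the low end of pair 2 stood Uqcrb, Ndufa8 (-0.76), Uqcrc1, Atp5md (-0.60) and Sdhb, all above 0 in pair 4. At the high end stood Ndufb11, the Atp5k-ps1 probe, Cox6b1 and Ndufa1 (0.71), of which Ndufa1 was at -0.16 in pair 4. Whether complexes differ within a pair was not tested, since the subunits of a pair share their RNA.

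**Figure D4:**
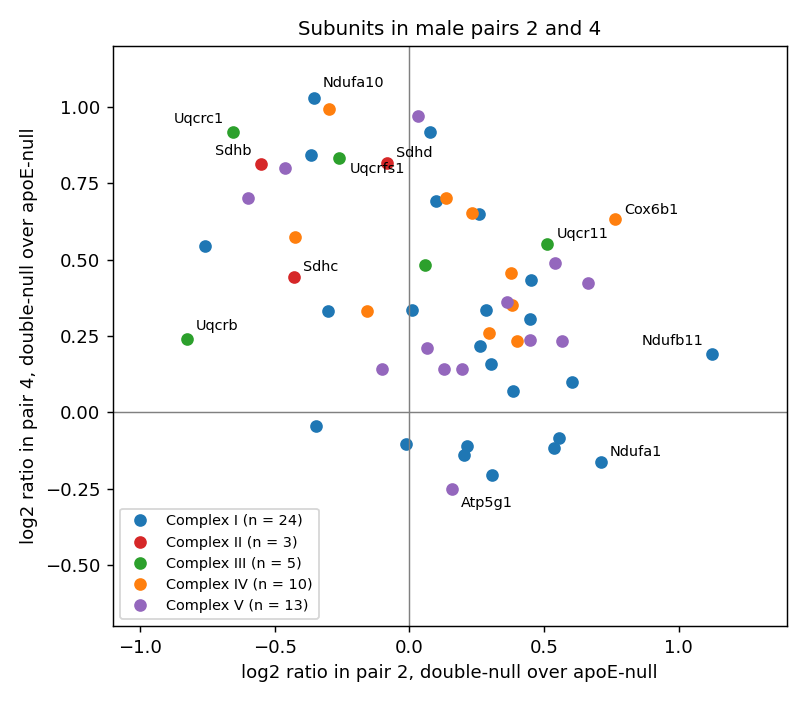
Each point is 1 subunit, with its log2 ratio (double-null over apoE-null) in pair 2 on the x axis and in pair 4 on the y axis, coloured by complex. The 3 complex II subunits lie below 0 in pair 2 and above 0 in pair 4, and 18 of 24 complex I subunits lie above 0 in pair 2.

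The female pair was compared with the male pairs through the difference of their ratios, pair 1 minus the mean of pairs 2 to 4. This was possible for 63 members, of which 62 had a difference above 0, against 43.5% of all 3339 genes, with a median difference of 0.90, against -0.067. After adjustment in limma 0 members passed, where 0.21% of all genes did. At an unadjusted p under 0.05 there were 41 members higher in the female pair, where 8.54% of all genes were. Ndufc2, of the complex I membrane arm, was at 1.51 in the female pair and averaged 0.039 ± 0.28 in the male pairs (SD, n = 3 pairs, adjusted p = 0.129 for the difference). Ndufa12, an accessory subunit, was at 1.04 in the female pair and averaged -0.25 ± 0.17 in the male pairs (SD, n = 3 pairs, adjusted p = 0.129). These were the lowest adjusted p among members. For both, the arrays of a male pair disagreed. Ndufc2 gave -0.92 and 0.47 in pair 3, and Ndufa12 -0.49 and 0.40 in pair 4. Without pair 4, 26 of 64 members passed, all higher in the female pair, where 4.81% of all genes were called higher. The median member difference moved little, at 0.98 without pair 4, against 0.90 with it. The fit without pair 4 took its spread from pairs 2 and 3 alone. Its count therefore cannot decide whether members differ between the female and male pairs. The only female pair was assumed to vary like the male pairs, and sex cannot be told apart from that pair.

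Channel assignment itself bore on 2 of 67 members, where 4.75% of all probes passed. Cox7b averaged -0.22 where channel 1 held double-null RNA, against 0.51 where channel 2 did. Atp5l, the g subunit of ATP synthase, averaged -0.11 and 0.49 in the same order. Both changed sign with the assignment. Over both assignments Cox7b had a mean of 0.14 ± 0.54 (SD, n = 5 pairs) and Atp5l of 0.19 ± 0.42 (SD, n = 5 pairs). At an unadjusted p under 0.05 there were 22 of 67 members, where 21.4% of all probes were.

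Other mitochondrial lists held no called gene in limma, and the citrate cycle and fatty acid oxidation were, like the members, highest in pairs 1 and 4. The 9 citrate cycle genes, 9 of them above 0 on average, had medians of 1.83, -0.27, -0.18, 0.90 and 0.057 in pairs 1 to 5. Dlst, of the oxoglutarate dehydrogenase complex, averaged 0.53 ± 0.48 (SD, n = 4 pairs, adjusted p = 0.462) and Suclg1, of succinate-CoA ligase, 0.67 ± 0.90 (SD, n = 5 pairs, adjusted p = 0.522). Fatty acid oxidation, with 12 of 13 above 0, had 1.60, -0.30, -0.31, 0.87 and -0.17. Its genes with the smallest p were Hadh, at 0.72 ± 0.87 (SD, n = 5 pairs, adjusted p = 0.503), and Slc25a20, the carnitine carrier, at 0.57 ± 0.76 (SD, n = 4 pairs, adjusted p = 0.543). Both medians were higher than that of the members in pairs 1 and 4 and, unlike it, below 0 in pair 2.

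Genes that make, import or assemble mitochondrial proteins had lower medians in pair 1. Mitochondrial ribosomal proteins, with 34 of 45 above 0, had pair medians of 0.50, 0.17, -0.14, 0.00071 and -0.072, with Mrpl45 at 0.28 ± 0.25 and Mrps7 at 0.33 ± 0.27. Protein import, with 14 of 17 above 0, had 0.47, 0.098, -0.11, 0.20 and -0.072, with Timm10 at 0.31 ± 0.39 and Timm22 at 0.16 ± 0.20. Further assembly genes of the chain, with 10 of 14 above 0, had 0.53, 0.28, -0.10, 0.10 and -0.075. Cox17, a copper chaperone for complex IV, averaged 0.45 ± 0.54 (SD, n = 5 pairs, adjusted p = 0.522) and Coa3, an assembly factor of complex IV, 0.26 ± 0.31 (SD, n = 5 pairs, adjusted p = 0.564). These 3 medians in pair 1 were below that of the members. Carriers and porins, 8 of 8 above 0, had pair medians of 0.48, -0.041, 0.0046, 0.37 and 0.027 and a median of 0.18 (0.028 without pair 1), with the porin Vdac2 at 0.24 ± 0.19 and prohibitin (Phb) at 0.41 ± 0.56. Regulators of mitochondrial biogenesis, 5 of 8 above 0, had pair medians of 0.37, -0.18, -0.075, 0.033 and -0.061 and a median of 0.069 (-0.057 without pair 1 and -0.013 without pair 3), with the nuclear receptor Esrrg at -0.51 ± 0.85 and the deacetylase Sirt3 at 0.31 ± 0.49. Nrf1, Gabpa and Ppargc1a had no pair value. Cytosolic ribosomal proteins, 19 of 57 above 0, had pair medians of -0.091, 0.13, 0.011, -0.25 and -0.046, with Rpl29 at 0.36 ± 0.18 and Rpl26 at -0.25 ± 0.23.

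Markers of fat were highest in the same pairs as the members. Brown adipocyte markers (8 of 13 tested, 8 above 0) had medians of 2.09, 0.18, -0.42, 1.44 and -0.23 in pairs 1 to 5, and white adipocyte markers (14 of 21 tested, 13 above 0) had 2.01, -0.24, -0.51, 0.97 and -0.38. Ucp1, the uncoupling protein that defines brown fat, had 2.51, -0.46, -0.58, 2.04 and -0.56. The adipokine Adipoq had 2.40, 0.36, 0.00052, 1.18 and -0.69. Pairs 1 and 4 were thus the pairs with the highest fat markers and with the highest member medians. By smallest p the lists named Fabp3 (0.79 ± 0.96, also a heart marker), Cox8b (0.78 ± 1.24), Lpl (-0.42 ± 0.58) and Scd1 (0.72 ± 1.19). None was called, and levels cannot be had from ratios. The part of fat cells in the members' values was not tested.

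Other cell type markers had other orders. Cardiac markers (9 of 17 tested, 6 above 0) had pair medians of -0.73, 0.66, 0.050, 0.095 and -0.21, with Actc1 at -0.45 ± 0.33. Skeletal muscle markers (3 of 14 tested, 1 above 0) had -0.22, 0.41, -0.0051, -0.35 and -0.19, with Tnni2 at -0.17 ± 0.55 and Mb at 0.34 ± 1.35. Both lists were highest in pair 2. Smooth muscle markers (2 of 7 above 0) had -0.50, -0.22, 0.32, 0.065 and -0.37, with Smtn at -0.23 ± 0.28 and Lmod1 at -0.32 ± 0.44. Endothelial markers (5 of 10 above 0) had -0.099, 0.015, 0.075, 0.14 and -0.049, with Cldn5 at 0.28 ± 0.22 and Kdr at 0.24 ± 0.49. Neither was highest in pair 1. Macrophage markers (1 of 21 above 0) had -1.18, -0.45, -0.67, -0.33 and 0.31, with Lyz2 at -0.81 ± 0.54 and C1qa at -0.87 ± 0.41. Red cell markers (3 of 3 above 0) had 1.58, 1.01, 0.47, 0.38 and 1.13, with Alas2 at 1.19 ± 0.78 and Hbb-b2 at 1.07 ± 0.75. No marker gene was called in limma, though 11 macrophage markers were lower and 3 red cell markers higher at an unadjusted p under 0.05. Their part in the members' values was not tested.

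**Figure D5:**
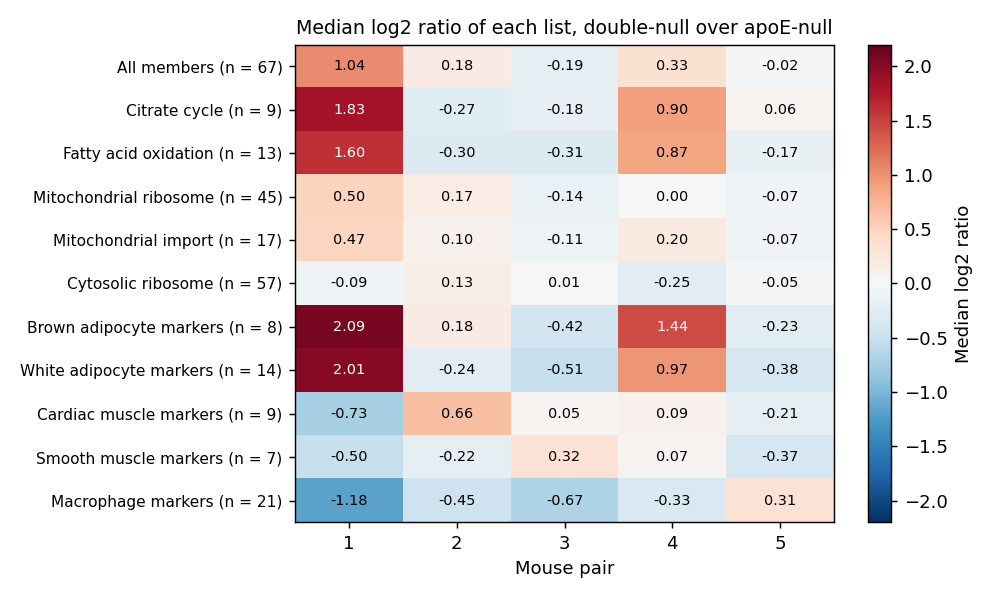
Each cell gives the median log2 ratio (double-null over apoE-null) of a gene list in 1 mouse pair. The members, the citrate cycle, fatty acid oxidation and both fat marker lists are highest in pair 1 and next highest in pair 4, and the cardiac muscle markers are highest in pair 2.

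The isoforms left out of the members gave a contrast within complex IV. Cox7a1, the form of muscle and brown fat, had log2 ratios of 2.68, 0.39, -0.83, 1.48 and 0.19 in pairs 1 to 5, against 0.81, 0.40, -0.38, 0.23 and 0.12 for the widely expressed Cox7a2. Cox8b, also of muscle and brown fat, had 2.37, 0.93, -0.40, 1.52 and -0.51, against 0.90, 0.38, -0.073, 0.46 and -0.14 for the widely expressed Cox8a. The muscle and brown fat form was the higher of each couple in pairs 1 and 4 and the lower in pair 3. In pair 1 the gap was 1.88 for Cox7a1 and 1.47 for Cox8b, and in pair 4 it was 1.24 and 1.06. The gaps were not tested. Cox6a2 had no pair value.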

How the data were processed

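Per the labels' protocols, aortic arch RNA was amplified with T7 polymerase, labelled with a Micromax ASAP kit, and the slides were quantified in GenePix Pro and examined with GeneSpring software. What the authors deposited are log2 ratios, titled apoE-null over double-null. No source used here states the normalization or the reason for blank cells. Array medians lay between -0.09 and 0.01 and were not changed. Spot intensities were not analysed here, and the number of arrays limits precision.

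Signs were turned to double-null over apoE-null, and both arrays of a pair (the same mice, by the labels) were averaged. Symbols were updated by Entrez identifier through RefSeq (12009 of 12143 matched), and the probes of a gene were averaged. With limma 3.58.1 in R 4.3.3 (lmFit, eBayes, two-sided), genes with at least 3 pair values were tested against 0, with Benjamini-Hochberg adjustment over 4299 genes and a threshold of 0.05. Probes, channel assignment and the female pair were tested likewise. The procedure was tested on simulated data with 200 of 4299 genes changed. It found 96% of changes of log2 1, and 6.11% of its calls were false at the threshold of 0.05. The changed genes were drawn from all 4299, so 96% is not the share for the members. Standard errors of the members ran between 0.10 (Atp5g2) and 0.35 (Ndufv2), and a change is missed more often where the error is larger. Noise was drawn for each gene alone, whereas the members of a pair share their RNA. All p-values reflect how mouse pairs varied, except in the alternative with no replicate block. That one counts the arrays of a pair as independent, though they share their RNA.

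The members, lists and tests were chosen with earlier results of these data known. Genes were named by rule: per complex the 4 smallest p and the highest and lowest mean, all Sdh, Uqcr and cytochrome c genes, Atp5g1, Atp5g2, Ndufa4, Cox7a2l, members with a channel effect, and the 2 smallest p per list. Others were named for their role or position after their values were seen. Alternatives covered pairs left out, the replicate block, single channel assignments, centring, scaling and filters.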

Additional observations from a re-analysis of the deposited data

Results flagged for a closer look

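The median of the 5 assembly factors in pair 1, 0.61, lay far from those of the other pairs, which were between -0.044 and 0.13. It was the 1 such case among 66 sets of 4 or 5 pair values, and chance gives about 1 in 20. Cox7b and Atp5l differed between the channel assignments: 0.5 times the difference (double-null in channel 1 minus double-null in channel 2) stood at -0.37 for Cox7b (adjusted p = 0.0347) and -0.30 for Atp5l (adjusted p = 0.0479).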

How the results depend on the processing

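No alternative of the double-null over apoE-null test called a member gene or probe. The median member stayed above 0 in every gene-level alternative, between 0.065 (without pair 1) and 0.39 (without pair 3) when pairs were left out, at 0.17 and 0.37 in the single channel assignments and at 0.091 in the male pairs alone. Complex medians without pair 1 were 0.070, -0.053, -0.010, 0.080 and 0.12 for complexes I to V, so those of II and III changed sign. With arrays fitted singly and the mouse pair as a replicate block, 29 genes and 35 probes were called over the whole table, against 35 and 38 with pair means, and no call among members changed. Over the whole table, leaving out a pair gave 0 to 17 genes and 0 to 25 probes (0 genes without pair 3 and without pair 4, with 493 and 273 at an unadjusted p under 0.05). Channel 2 arrays alone gave 98 genes and 119 probes, channel 1 arrays alone 59 probes, pair values from 1 array 7 genes, no replicate block 64 probes, a threshold of 0.1 62 genes and 74 probes, and no empirical Bayes 0 of either, with 348 genes and 415 probes at an unadjusted p under 0.05. The 2 channel effects fell to between 0 and 1 when a pair was left out. For the female pair against the male pairs, leaving out a male pair gave 0 to 26 members (26 without pair 4) and 2 to 224 genes over the whole table, where the full comparison called 7 and a threshold of 0.1 gave 29. The macrophage list had 0 to 1 genes called (1 without pair 5). Of 579 values of the 31 named members under alternatives, 27 changed sign, 8 of these without pair 1. While 573 stayed within 1 SD over pairs, leaving out 1 pair cannot move a mean that far. Some alternatives keep the mean as it is, so this count does not measure stability. The causes were not tested.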

Other observations

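Uqcrh, the hinge protein of complex III, was not tested, since it had values only where channel 1 held double-null RNA: 0.76, 0.48, 0.68, 0.24 and -0.0083 in pairs 1 to 5 on the log2 scale. Cox7b2, a complex IV isoform known from testis, was read on the same arrays, at 0.81, 0.15, -0.22, 0.062 and -0.16. Both were highest in pair 1, like most tested members, and their swapped arrays were blank. Ndufaf4, a complex I assembly factor, gave -0.10 and 1.01 on the arrays of pair 1, which disagree.

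Mitochondrial antioxidant genes, 4 of 5 above 0, had pair medians of 1.07, 0.032, -0.22, 0.36 and 0.13. Gpx4, which reduces lipid peroxides in membranes, averaged 0.41 ± 0.46 (SD, n = 5 pairs, adjusted p = 0.522) in limma, and Gpx1, a soluble peroxidase, -0.19 ± 0.26 (SD, n = 5 pairs, adjusted p = 0.627). None was called.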
